A study of Mus musculus with 12 samples.

Results

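The genes described here are the nuclear-encoded subunits of the 5 complexes of oxidative phosphorylation, read in RNA of colonic crypts. They were chosen by symbol: names starting with Ndufa, Ndufb, Ndufc, Ndufs, Ndufv, Uqcr, Cox4, Cox5, Cox6, Cox7, Cox8 or Atp5, together with *Sdha*, *Sdhb*, *Sdhc*, *Sdhd* and *Cyc1*. Assembly factors whose names start with Ndufaf (8 genes) and names with -ps (15 genes) were left out, and a gene needed at least 60 reads summed over the 12 libraries. Of 55471 genes listed, 85 met the rule, with 40 named for complex I, 4 for complex II, 9 for complex III, 14 for complex IV and 18 for complex V. A further 9 genes had such a name but too few reads, and all 85 members passed the filter on low counts and were tested. The names hold some genes that are not subunits. *Atp5if1* is the inhibitor of the ATP synthase, and *Ndufb4c*, *Ndufs6b* and *Cox6c2* are annotated as processed pseudogenes. *Ndufb1* bears the name of a complex I subunit, although the annotation used lists it as a noncoding transcript of a bidirectional promoter. *Ndufa4*, named for complex I, is known as a subunit of complex IV.

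Crypts were released with EDTA from the colon of adult female C57BL/6J mice, 3 mice in each of 4 groups with 1 library per mouse. CBPWTp53-floxed mice carried wild-type CBP and floxed p53 alleles without Cre, and CBPAAp53-floxed mice carried the same p53 alleles with a knock-in CBP whose phosphorylated serines are replaced by alanines in every cell. In CBPWTp53ΔIEC and CBPAAp53ΔIEC mice, Cre under the Villin promoter deleted p53 in intestinal epithelial cells, in addition to the respective CBP genotype. Floxed p53 alleles were thus shared by all 4 groups, and the knock-in line was made in embryonic stem cells and backcrossed to C57BL/6.

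Oxidative phosphorylation transfers electrons from NADH and succinate to oxygen and uses the energy to make ATP. Complex I (NADH dehydrogenase) and complex II (succinate dehydrogenase) pass electrons by way of ubiquinone to complex III, cytochrome c carries them to complex IV (cytochrome c oxidase), and complex V is the ATP synthase driven by the proton gradient. Most subunits are encoded in the nucleus and imported, and the rest, in complexes I, III, IV and V, are encoded and made in the mitochondria. Differentiated colonocytes are known to meet much of their energy need by oxidising butyrate in mitochondria. Promoters of nuclear subunit genes are known for sites of NRF1, of the ETS family factor GABP and of YY1.

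Promoter sequences were taken from RefSeq (GRCm38.p6), where 69 of the 85 members had an entry, with 74 promoters in all. Each sequence searched spanned 250 bases before the annotated start and the 50 after it. The motifs were the core of the NRF1 site (GCGCATGCG), a shorter NRF1 motif (TGCGCA), an ETS core (CCGGAAG) and a YY1 core (AAGATGGC), each read on both strands. The NRF1 core was in 8 of the 74 promoters (10.8%), against 1.75% of all 32851 promoters. The shorter NRF1 motif was in 20 (27%), against 7.76% of all, the ETS core in 17 (23%), against 8.86%, and the YY1 core in 10 (13.5%), against 2.75%. The motifs of NRF1 can overlap each other. Of the 69 members, 19 had the shorter motif, 17 an ETS core, 4 both and 37 neither. Letters that match describe a sequence and not a bound site.

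The 250 bases before the start are given for the pair of genes with the smallest unadjusted p-values after p53 deletion averaged over genotypes. They are also given for a pair of genes whose promoters hold both the shorter NRF1 motif and an ETS core. Motif letters are in capitals, and each sequence is written 5′ to 3′ on the strand of its gene. *Cox7a1* and *Cox7a2l* had none of the 4 motifs in this window. The *Cox7a2l* window precedes a RefSeq start inside the gene's annotated span, which reaches to 83517330. Bases before that outer end were not searched. *Cox6a1* had the NRF1 core, the shorter motif and an ETS core, and *Ndufb6* had the shorter motif and an ETS core. The sequences lie at chr7:30183921-30184170 (plus strand, *Cox7a1*), chr17:83514334-83514583 (minus, *Cox7a2l*), chr5:115348959-115349208 (minus, *Cox6a1*) and chr4:40279422-40279671 (minus, *Ndufb6*).
Cox7a1: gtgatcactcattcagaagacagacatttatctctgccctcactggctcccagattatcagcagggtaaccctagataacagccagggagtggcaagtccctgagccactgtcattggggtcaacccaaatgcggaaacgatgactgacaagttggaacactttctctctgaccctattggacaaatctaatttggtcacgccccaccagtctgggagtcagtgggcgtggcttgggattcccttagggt
Cox7a2l: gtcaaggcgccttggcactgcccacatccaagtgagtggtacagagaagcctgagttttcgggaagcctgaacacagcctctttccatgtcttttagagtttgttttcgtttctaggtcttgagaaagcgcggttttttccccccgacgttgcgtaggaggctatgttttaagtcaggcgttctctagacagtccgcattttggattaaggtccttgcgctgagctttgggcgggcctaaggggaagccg
Cox6a1: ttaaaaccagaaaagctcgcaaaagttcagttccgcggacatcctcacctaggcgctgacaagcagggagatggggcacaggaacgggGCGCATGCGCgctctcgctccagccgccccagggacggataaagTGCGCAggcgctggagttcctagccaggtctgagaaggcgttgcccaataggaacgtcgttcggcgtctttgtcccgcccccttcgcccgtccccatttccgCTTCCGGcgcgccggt
Ndufb6: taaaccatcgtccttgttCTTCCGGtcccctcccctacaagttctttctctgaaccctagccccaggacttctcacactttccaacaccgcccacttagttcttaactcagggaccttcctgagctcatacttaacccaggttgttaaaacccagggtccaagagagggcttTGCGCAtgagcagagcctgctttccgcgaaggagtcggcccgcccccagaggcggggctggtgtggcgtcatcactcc

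Reads counted on genes numbered from 11177430 to 18029125 in a library. *Trp53*, the deleted gene, lay between 23.3 and 33.5 TPM (a read count scaled to gene length and to the same total in every library) in the 6 p53-floxed libraries and between 3.26 and 6.13 TPM in the 6 p53ΔIEC libraries. *Crebbp*, which encodes CBP, lay between 5.98 and 11.5 TPM, and its knock-in changes codons and not necessarily the level. Marker genes of colonic epithelium summed to between 18743 and 34800 TPM, whereas 13 genes of smooth muscle and stroma summed to between 4.3 and 8.7 TPM, 8 endothelial genes to between 3.0 and 4.7 and 12 leukocyte genes to between 3.7 and 7.2. A few libraries stood apart in ways that touch the members. CBPAAp53-floxed replicate 2 had the highest share of its counts in members (1.76%, against 1.38% to 1.54% in the others). CBPWTp53ΔIEC replicate 1 had 15875 TPM in 12 small intestinal enterocyte genes, followed by CBPAAp53ΔIEC replicate 3 with 7607 and the other 10 libraries with between 1788 and 5083. A list of 18 proliferation genes summed to between 239 and 339 TPM in p53-floxed libraries and to 396, 846 and 888 TPM in CBPWTp53ΔIEC and 707, 691 and 283 TPM in CBPAAp53ΔIEC replicates 1 to 3. In such bulk libraries, fewer cells of a type and less RNA per cell cannot be told apart.

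The subunit genes were among the more abundant transcripts of the crypts. Their mean TPM over the 12 libraries had a median of 140.7, against 12.3 for the 14610 genes tested, 82 of 85 lay above that general median and 60 lay in the top decile of all genes (87.2 TPM or more). Levels differed widely between subunits of the same complex. In complex IV, *Cox8a* (1654 TPM), *Cox6a1* (1338 TPM) and *Cox4i1* (923.5 TPM) were the most abundant, and in complex V the catalytic α and β subunits *Atp5f1a* (1342 TPM) and *Atp5f1b* (1171 TPM). Complex III had a median of 382 TPM over its 9 genes, and none was below 203 TPM. Complex II had its highest level in *Sdhd* (777 TPM), a membrane anchor, and its lowest in *Sdhb* (88.8 TPM), the iron-sulfur subunit. Subunits joined in equal number in the complex thus differed in TPM, a value that also depends on the gene length used.

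Complex I subunits were lower, with a median of 95.4 TPM over 40 genes. *Ndufb11* led them with 372 TPM, and *Ndufs1*, a core subunit with iron-sulfur clusters, was at 35.2 TPM. The lowest member of all was *Ndufb2* with 4.35 TPM. Its exons overlap the annotated gene *Gm42420* on the same strand and *Braf* on the opposite strand. Whether reads of *Ndufb2* went uncounted for this was not tested.

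**Figure D1:**
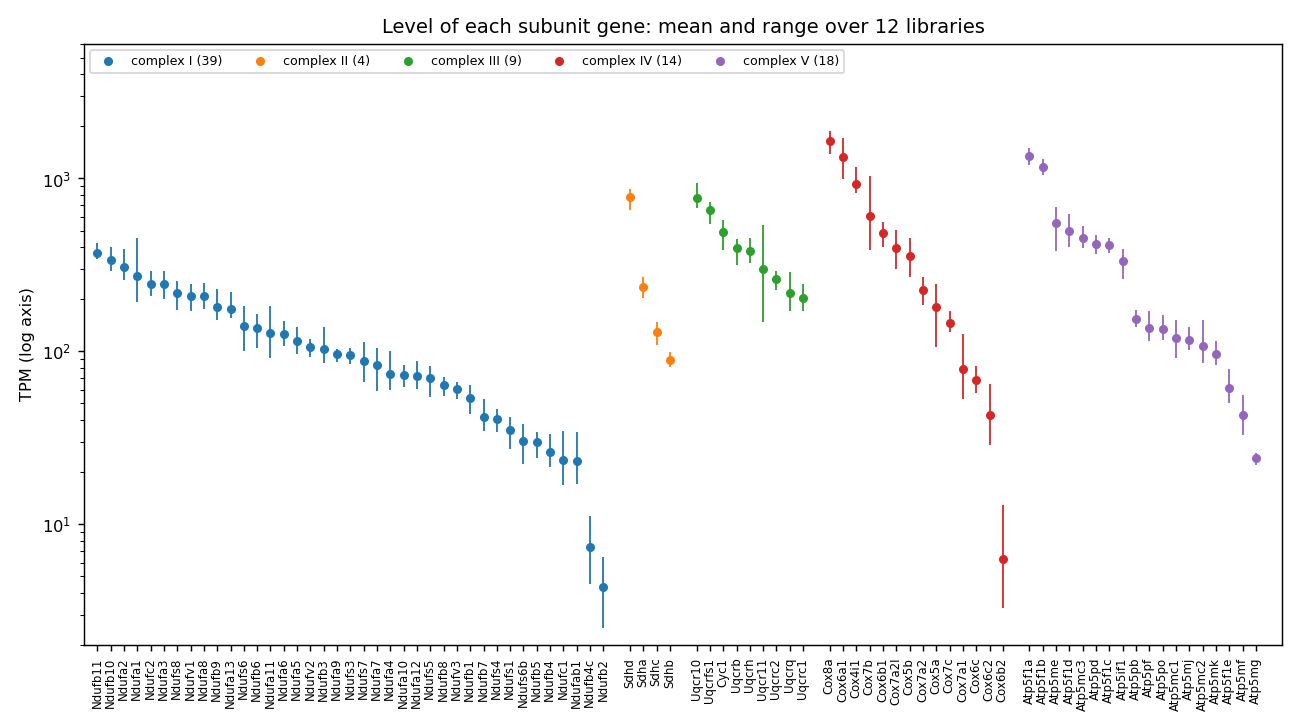
Level of 84 of the 85 subunit genes in TPM (log axis), with points for the mean and lines for the range over 12 libraries, ordered within complexes I to V. Cox8a at 1654 TPM was the highest and Ndufb2 at 4.35 TPM the lowest member, and complex III had no gene below 203 TPM.

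Subunits with tissue isoforms were read mostly from the isoform known in most tissues. *Cox4i2*, *Cox6a2*, *Cox7b2*, *Cox8b* and *Cox8c*, isoforms of lung, muscle or testis, had 6, 15, 1, 10 and 0 reads over all 12 libraries, and *Ndufa4l2*, a hypoxia-induced relative of *Ndufa4*, had 2. Against these, *Cox4i1* was at 923.5 TPM, *Cox6a1* at 1338, *Cox7b* at 608 and *Cox8a* at 1654 TPM. *Cox6b2*, the testis isoform of a subunit facing the intermembrane space, made up 1.25% of the *Cox6b1* and *Cox6b2* TPM. *Cox7a1*, the isoform known from heart and skeletal muscle, was the exception, with a mean of 79.4 TPM beside 226 TPM of the general isoform *Cox7a2*. The 3 genes *Atp5mc1*, *Atp5mc2* and *Atp5mc3*, which encode the same mature c subunit of the proton-driven ring, gave 17.4%, 15.9% and 66.7% of their summed TPM. Near-identical copies elsewhere hold 25.6% as many reads as *Atp5mc1* and 5.48% as many as *Atp5mc2*. For *Atp5mc3* no such copy was found, and the shares were not corrected for this.

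Levels of most members varied by less than 2-fold between libraries. In read counts scaled to library size with the TMM method (CPM), the ratio of the highest to the lowest library had a median of 1.5 over the 85 members and was under 2-fold in 76. The smallest ratio was that of *Ndufs1* (1.12) and the largest that of *Cox6b2* (3.40). Within groups, the SD of log2 CPM had a median of 0.18 over members and 0.21 over all genes tested. The largest within-group spread, 0.69, belonged to a member whose processed copies hold reads, *Uqcr11*.

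Members summed to 23092, 22267 and 21491 TPM in CBPWTp53-floxed replicates 1 to 3, and to 22484, 25944 and 19460 TPM in CBPAAp53-floxed. The sums were 21316, 23439 and 24811 TPM in CBPWTp53ΔIEC, and 23801, 21668 and 21545 TPM in CBPAAp53ΔIEC. All groups overlapped, and the CBPAAp53-floxed group held both the highest and the lowest library. The group means differed by 4.07% (p53 deletion in CBPWT crypts), -1.29% (p53 deletion in CBPAA crypts), 1.55% (CBPAA against CBPWT with p53) and -3.67% (CBPAA against CBPWT without p53), each less than the SD between replicates of the groups compared, which was 6.14%, 10.9%, 10.6% and 6.62% of the reference mean. The 13 mitochondrially encoded subunits summed to between 189543 and 258699 TPM, far above the nuclear-encoded members, and their groups overlapped as well.

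On the CPM scale, which sets libraries against each other by TMM and was used for the tests, CBPAAp53-floxed replicate 2 was the highest library for 52 of the 85 members, and 82 members were above their own mean there. The median deviation of members from their mean over libraries was 0.27 on the log2 scale in that library, and between 0.23 and 0.35 in each of the 5 complexes. CBPWTp53ΔIEC replicate 1 followed with a median deviation of 0.16 and 77 members above their mean. CBPWTp53-floxed replicate 3 was at the other end, with a median deviation of -0.18, 6 members above their mean and the lowest value of 37 members. The other libraries of each of these groups had median deviations between -0.09 and 0.04. CBPAAp53-floxed replicate 3, lowest by summed TPM, had a median deviation of 0.02 in CPM, so the order of libraries depends on the scale.

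**Figure D2:**
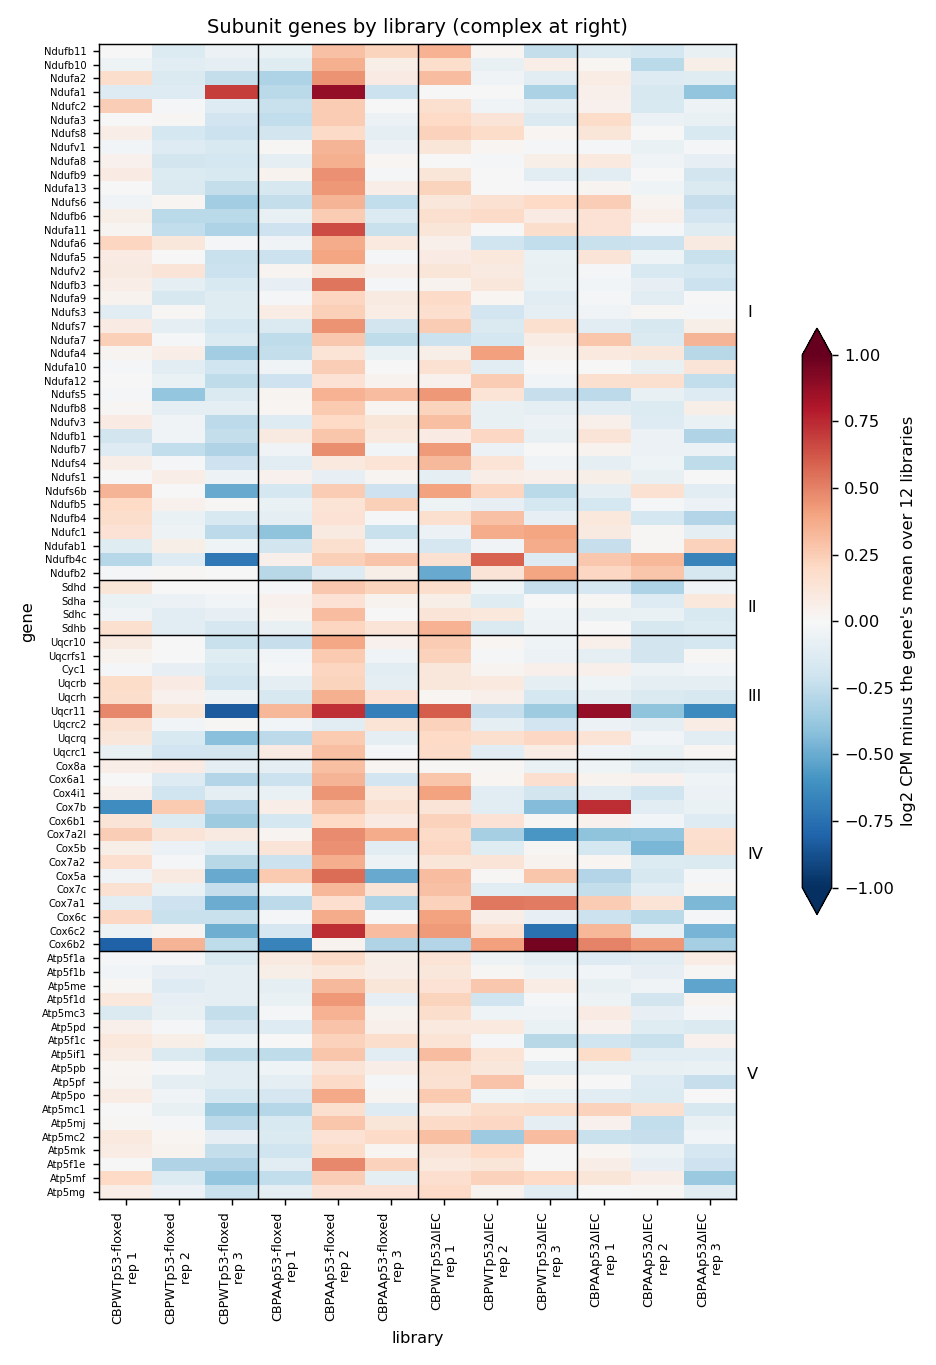
Deviation of log2 CPM (TMM-normalised) of 84 of the 85 genes from their mean over 12 libraries, in columns by library and rows by complex, with red for higher and blue for lower. CBPAAp53-floxed replicate 2 is red in most rows (median deviation 0.27 over all 85) and CBPWTp53-floxed replicate 3 is blue in most (-0.18).

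The first comparison asked how p53 deletion in the epithelium bore on these genes in crypts with wild-type CBP (CBPWTp53ΔIEC vs. CBPWTp53-floxed). None of the 85 members passed an adjusted p under 0.05 in edgeR's quasi-likelihood test, where 3.72% of all genes tested did (Benjamini-Hochberg adjustment ran over the 14610 genes, and p-values measure the spread between these mice), and 4 had an unadjusted p under 0.05 (4.71%, against 20.9% of all genes). DESeq2 called 1 member, *Cox7a1*, and its share of calls over all genes is not given here. Of the members, 74 were higher and 11 lower, with a median log2 fold change of 0.13 beside 0.01 over all genes. The groups did not overlap in 14 members (16.5%, 13 higher and 1 lower), against 30.8% of all genes. The 95% intervals of 64 members lay within a 1.5-fold change in either direction, which holds for 47.0% of all genes. The members named for complexes I to V had medians of 0.13, 0.07, 0.08, 0.15 and 0.13. Of the 18 proliferation genes, 16 were called as higher, and the list had a median of 1.73. Within CBPWTp53ΔIEC, the median deviation of members was 0.16, 0.02 and -0.04 in replicates 1 to 3 on the CPM scale. By summed TPM the order was reversed, at 21316, 23439 and 24811 TPM in replicates 1 to 3. Replicate 1 had the least proliferation RNA (396 TPM) and the most small intestinal enterocyte RNA (15875 TPM) of the 3. The enterocyte list had a median of 3.25 with none of its 11 tested genes called. The part of cell makeup in the members' values was not tested. The median of the members was 0.06 without CBPWTp53ΔIEC replicate 1 and 0.08 without CBPWTp53-floxed replicate 3.

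*Cox7a1* (ENSMUSG00000074218, chromosome 7, 30184144 to 30186078 on the plus strand of GRCm38) came closest to the threshold. It was at 15, 14.0 and 11.4 CPM in CBPWTp53-floxed, 13.4, 18.1 and 13.02 CPM in CBPAAp53-floxed, 19.0, 23.3 and 23.1 CPM in CBPWTp53ΔIEC and 19.2, 17.7 and 11.8 CPM in CBPAAp53ΔIEC replicates 1 to 3. The 3 CBPWTp53ΔIEC libraries lay above all other libraries but CBPAAp53ΔIEC replicate 1, which lay among them, and CBPAAp53ΔIEC replicate 3 lay with the p53-floxed libraries. The log2 fold change in CBPWT crypts was 0.70 (95% interval 0.29 to 1.11, unadjusted p = 0.00292, adjusted p = 0.0613 from edgeR). Over all alternatives the adjusted p ranged from 0.0164 to 0.247, under 0.05 in 7 of them and above it in 13. It was 0.0164 in DESeq2, 0.0418 without CBPAAp53-floxed replicate 2, 0.0360 without CBPWTp53ΔIEC replicate 1 and 0.0206 without CBPAAp53ΔIEC replicate 3.

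The general isoform *Cox7a2* did not pass the test. It was at 93.9, 82.7 and 69.1 CPM in CBPWTp53-floxed and at 91.0, 91.1 and 85.4 CPM in CBPWTp53ΔIEC, overlapping groups with a log2 fold change of 0.12 (95% interval -0.19 to 0.44). In TPM, *Cox7a1* made up 22.0%, 23.0% and 22.6% of both isoforms in CBPWTp53-floxed and 24.8%, 22.9% and 22.2% in CBPAAp53-floxed. The share was 26.9%, 31.1% and 32.3% in CBPWTp53ΔIEC and 28.6%, 29.2% and 21.6% in CBPAAp53ΔIEC. Of the 6 libraries without p53, 5 were thus above all 6 with p53, and CBPAAp53ΔIEC replicate 3 was below them. That library also had 283 TPM of proliferation genes, within the range of the p53-floxed libraries, and 4.66 to 6.13 TPM of *Trp53* were read in its group.

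Other members with an unadjusted p under 0.05 in this comparison were *Ndufb7*, *Uqcrq* and *Ndufb6*. *Ndufb7*, an accessory subunit of complex I, was at 67.2, 61.9 and 59.6 CPM in CBPWTp53-floxed and at 98.5, 70.7 and 73.4 CPM in CBPWTp53ΔIEC, giving a log2 fold change of 0.36 (SE, standard error, 0.15). *Uqcrq*, a small subunit of complex III, was at 168.0, 139.5 and 116.4 CPM and at 177.8, 173.3 and 179.6 CPM, giving a log2 fold change of 0.32 (SE 0.15). *Ndufb6*, whose promoter is printed above, was at 36.7, 29.1 and 29.1 CPM and at 39.1, 40.1 and 37.1 CPM, giving a log2 fold change of 0.30 (SE 0.13). In each the groups did not overlap, and the adjusted p from edgeR was between 0.188 and 0.234. Of the other members with both the shorter NRF1 motif and an ETS core, *Cox6a1* had a log2 fold change of 0.30 (95% interval -0.01 to 0.61), *Sdhd* of -0.07 (95% interval -0.34 to 0.20) and *Atp5mg* of 0.11 (95% interval -0.13 to 0.35).

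In crypts with CBPAA, the effect of p53 deletion on the same genes (CBPAAp53ΔIEC vs. CBPAAp53-floxed) had the opposite median. None of the 85 members passed an adjusted p under 0.05 in edgeR, as did 0.0274% of all genes, or in DESeq2, and 4 had an unadjusted p under 0.05, against 12.6% of all genes. Of the members, 18 were higher and 67 lower, with a median of -0.14 beside 0.01 over all genes. The groups did not overlap in 9 members (10.6%, all lower), against 15% of all genes. Intervals lay within a 1.5-fold change in 66 members, and in 50.9% of all genes. Complexes I to V had medians of -0.14, -0.20, -0.13, -0.21 and -0.15. The highest member was *Cox6b2* with 0.51 (SE 0.37) and the lowest *Cox7a2l* with -0.48 (SE 0.20). The proliferation genes had a median of 1.12, opposite in sign to the members, with 0 of 18 called by edgeR and 13 at an unadjusted p under 0.05. Without CBPAAp53-floxed replicate 2 the members' median was -0.04, with 33 members higher and 52 lower.

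*Sdhd* (ENSMUSG00000000171, chromosome 9, 50596357 to 50603812 on the minus strand), a membrane anchor of succinate dehydrogenase, had the smallest p of this comparison. It was at 371.9, 451.9 and 439.2 CPM in CBPAAp53-floxed and at 335.4, 303.8 and 367.7 CPM in CBPAAp53ΔIEC, without overlap. The log2 fold change was -0.33 (95% interval -0.60 to -0.06, unadjusted p = 0.0216, adjusted p = 0.349 from edgeR). In CBPWT crypts it was at 409.4, 375.7 and 377.9 CPM with p53 and at 424.0, 364.1 and 320.3 CPM without, and these groups overlapped.

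*Ndufs5* (ENSMUSG00000028648, chromosome 4, 123712710 to 123718202 on the minus strand), an accessory subunit of complex I, was at 24.1, 30.1 and 29.3 CPM in CBPAAp53-floxed and at 19.7, 22.4 and 21.7 CPM in CBPAAp53ΔIEC. Those groups did not overlap, giving a log2 fold change of -0.39 (SE 0.16, adjusted p = 0.371 from edgeR). In CBPWT crypts *Ndufs5* was at 23.5, 18.2 and 21.4 CPM with p53 and at 31.9, 26.0 and 20.1 CPM without. *Atp5me*, the e subunit of the ATP synthase, which is known for a part in its dimers, was at 124.8, 167.0 and 145.4 CPM in CBPAAp53-floxed and at 126.9, 130.1 and 92.6 CPM in CBPAAp53ΔIEC, with overlap and a log2 fold change of -0.32 (SE 0.14).

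The comparison of CBPAAp53-floxed with CBPWTp53-floxed crypts asked what the CBP knock-in changed while p53 was present. None of the members and 0 of all 14610 genes (0%) passed an adjusted p under 0.05 in edgeR, and DESeq2 called no member. The paper reports differentially expressed genes for this comparison, versican among them, from the authors' own processing, which was not repeated here. An unadjusted p under 0.05 was found in 6 members (7.06%), all higher in CBPAA, against 8.04% of all genes. Of the members, 77 were higher and 8 lower with a median of 0.14, beside 0.01 over all genes. The groups did not overlap in 13 members (15.3%, all higher), against 19.4% of all genes. The 95% intervals of 73 members lay within a 1.5-fold change, which holds for 53.03% of all genes. The median rested on single libraries: it was 0.02 without CBPAAp53-floxed replicate 2, with 48 members higher and 37 lower, 0.07 without CBPWTp53-floxed replicate 3 and 0.22 without CBPAAp53-floxed replicate 1.

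The highest member was the pseudogene *Ndufb4c* with 0.55 (SE 0.34) and the lowest *Cox6b2* with -0.12 (SE 0.37), whose sign turned without single libraries. The CBPWTp53-floxed and CBPAAp53-floxed libraries are also the controls of the comparisons above.

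The 6 members were *Atp5f1e*, *Atp5mc3*, *Uqcrc1*, *Ndufs5*, *Ndufb7* and *Ndufb1*. *Atp5f1e*, the ε subunit in the head of the ATP synthase, was at 41.9, 34.1 and 33.9 CPM in CBPWTp53-floxed and at 38.9, 58.4 and 49.3 CPM in CBPAAp53-floxed, overlapping groups with a log2 fold change of 0.42 (SE 0.14). *Uqcrc1*, a core protein of complex III, was at 313.7, 289.5 and 291.2 CPM and at 348.5, 405.9 and 326.5 CPM, without overlap and with a log2 fold change of 0.27 (SE 0.11). CBPAAp53-floxed replicate 2 was the highest of the 6 libraries for both genes. *Atp5mc3*, the most abundant gene of the c ring, was at 351.1, 367.1 and 328.7 CPM and at 383.0, 492.1 and 397.0 CPM, also without overlap (log2 fold change 0.28, SE 0.12). All 6 had an adjusted p of 0.618 in edgeR.

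Without p53, CBPAA crypts were compared with CBPWT crypts (CBPAAp53ΔIEC vs. CBPWTp53ΔIEC). No member passed an adjusted p under 0.05 in edgeR, as did 0.00684% of all genes, or in DESeq2. An unadjusted p under 0.05 was found in 4 members, all lower, against 3.57% of all genes. Of the members, 10 were higher and 75 lower, with a median of -0.12 beside -0.01 over all genes, and all 18 members of complex V were lower. The groups did not overlap in 9 members (10.6%, all lower), against 9.26% of all genes. Intervals lay within a 1.5-fold change in 69 members, and in 57.5% of all genes. Without CBPWTp53ΔIEC replicate 1, the library with the most small intestinal RNA, the median was -0.06, with 25 members higher and 60 lower.

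*Atp5me*, at 147.2, 160.7 and 140.3 CPM in CBPWTp53ΔIEC and the values given above in CBPAAp53ΔIEC, had no overlap and a log2 fold change of -0.36 (95% interval -0.66 to -0.06, adjusted p = 0.985 from edgeR). *Atp5pf*, coupling factor 6 of the peripheral stalk, was at 185.4, 202.4 and 168.9 CPM and at 166.3, 152.3 and 141.6 CPM, giving a log2 fold change of -0.27 (SE 0.11). *Ndufs4*, an accessory subunit of complex I, was at 54.2, 47.7 and 42.3 CPM and at 40.5, 42.2 and 36.5 CPM, giving a log2 fold change of -0.27 (SE 0.12). Both were without overlap. *Cox7a1* had a log2 fold change of -0.42 (SE 0.19), and it was -0.24 without CBPAAp53ΔIEC replicate 3. The highest member of this comparison was *Cox7b* with 0.36, which was at 472.8 CPM in CBPAAp53ΔIEC replicate 1 and between 210.1 and 310.4 CPM in the other libraries without p53. Leaving that library out gave 0.03.

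**Figure D3:**
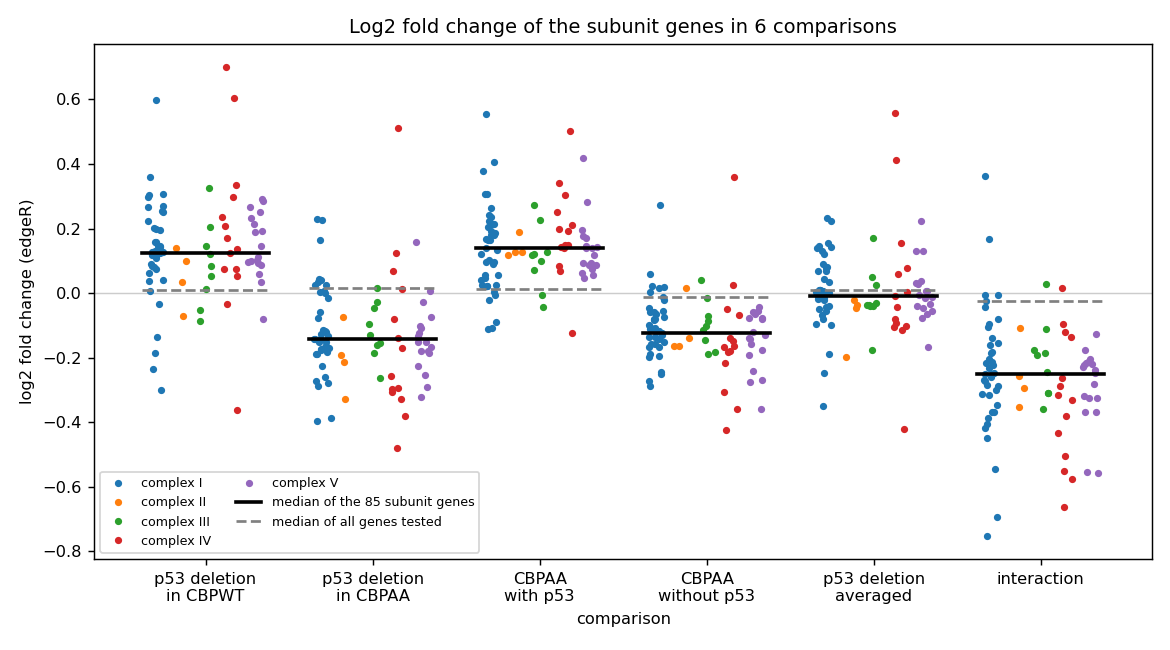
Log2 fold change from edgeR of each of the 85 genes in 6 comparisons, coloured by complex, with the median of the members (solid) and of all genes tested (dashed). Medians were 0.13, -0.14, 0.14, -0.12, -0.01 and -0.25 from left to right, and no member had an adjusted p under 0.05.

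Averaged over both CBP genotypes, the values of p53 deletion centred on 0 for the members, with single subunits on both sides. No member passed an adjusted p under 0.05 in edgeR, as did 4.93% of all genes. DESeq2 called 1, *Cox7a2l*, as lower, and its share of calls over all genes is not given here. An unadjusted p under 0.05 was found in 6 members (7.06%, 2 higher and 4 lower), against 21.9% of all genes. Of the members, 40 were higher and 45 lower, with a median of -0.01 beside 0.01 over all genes. In none of the members did the 6 libraries without p53 stand clear of the 6 with p53, which they did in 1.76% of all genes. The 95% intervals of 78 members lay within a 1.5-fold change, which holds for 65.9% of all genes.

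*Cox7a2l* (ENSMUSG00000024248, chromosome 17, 83501918 to 83517330 on the minus strand), also called SCAFI, is known to join complexes III and IV into supercomplexes, and C57BL/6 mice are known to carry a shortened form of the protein. It was at 269.8, 248.3 and 241.9 CPM in CBPWTp53-floxed and 231.8, 314.7 and 293.4 CPM in CBPAAp53-floxed. It was at 259.9, 180.2 and 151.9 CPM in CBPWTp53ΔIEC and 171.8, 174.2 and 255.8 CPM in CBPAAp53ΔIEC. Of the libraries without p53, 4 thus lay below all 6 with p53, and CBPWTp53ΔIEC replicate 1 and CBPAAp53ΔIEC replicate 3 lay among the latter. These 2 libraries also had the most small intestinal enterocyte RNA and the least proliferation RNA of those without p53. In the deposited library names they also carry lower numbers than the other 4, and what these numbers stand for is not stated. The part of any of these in the level of *Cox7a2l* was not tested. The log2 fold change was -0.42 (95% interval -0.73 to -0.11, unadjusted p = 0.0111, adjusted p = 0.1097 from edgeR). The adjusted p was 0.0483 in DESeq2, 0.0113 without CBPWTp53ΔIEC replicate 1 and 0.0230 without CBPAAp53ΔIEC replicate 3, and ranged from 0.0113 to 0.266 over all alternatives. It was under 0.05 in 4 alternatives and above it in 15. By CBP genotype the log2 fold change was -0.36 (SE 0.20) in CBPWT and -0.48 (SE 0.20) in CBPAA crypts.

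*Cox7a1* had a log2 fold change of 0.41 averaged over both genotypes (95% interval 0.12 to 0.70, adjusted p = 0.0993 from edgeR). Its adjusted p was 0.0470 without CBPAAp53-floxed replicate 2, 0.0448 without CBPWTp53ΔIEC replicate 1 and 0.0164 without CBPAAp53ΔIEC replicate 3. *Cox7a1* was not called here in DESeq2 or with any other single library left out. *Cox7a1* and *Cox7a2l* thus had opposite signs among paralogs that occupy related places in complex IV, and *Cox7a2* had a log2 fold change of -0.01 (95% interval -0.23 to 0.21). With CBPAAp53-floxed replicate 2 and CBPWTp53ΔIEC replicate 1 both left out, a choice made after seeing the data, 5 members were called, *Cox7a1*, *Atp5mc1* and *Ndufc1* as higher and *Cox7a2l* and *Ndufa6* as lower. The share of all genes called in that fit is not given here, so this count cannot be set against it.

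**Figure D4:**
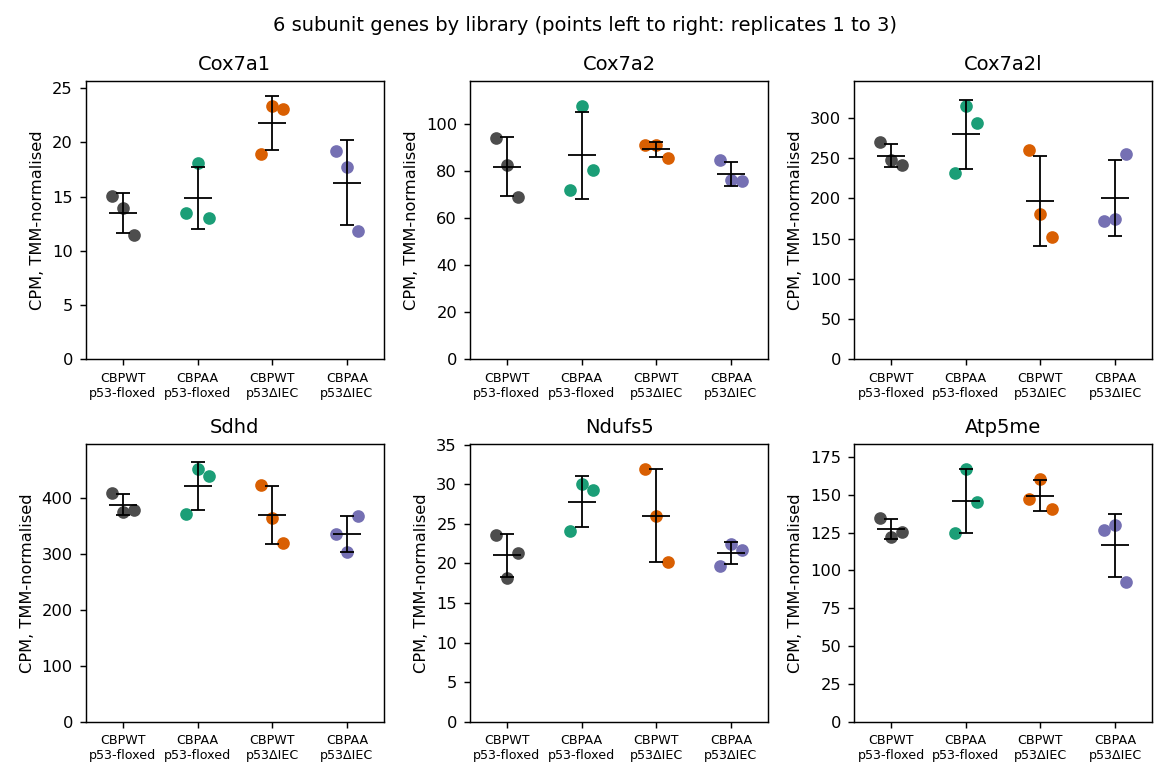
CPM (TMM-normalised, axes from 0) of 6 genes in each library, with points from left to right for replicates 1 to 3 and bars for the mean and SD of 3 libraries. Cox7a1 in CBPAAp53ΔIEC replicate 3 (11.8 CPM) and Cox7a2l in CBPWTp53ΔIEC replicate 1 (259.9 CPM) lie with the p53-floxed libraries.

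By complex, the highest and lowest members under p53 deletion averaged over genotypes are given here for each complex. In complex I, *Ndufc1* had a log2 fold change of 0.23 (95% interval -0.02 to 0.49) and *Ndufa1*, an X-linked accessory subunit, of -0.35 (95% interval -0.84 to 0.14). *Ndufa1* was at 69.9 CPM in CBPWTp53-floxed replicate 3 and at 79.8 CPM in CBPAAp53-floxed replicate 2 and between 33.0 and 44.9 CPM in the other 10 libraries. *Ndufa6*, an accessory subunit, had -0.25 (SE 0.09, adjusted p = 0.142 from edgeR). In complex II, *Sdha*, the flavoprotein that oxidises succinate, had a log2 fold change of -0.02 (95% interval -0.17 to 0.13) and *Sdhd* of -0.20 (95% interval -0.39 to -0.01). In complex III the values were 0.17 for *Uqcrq* (95% interval -0.06 to 0.40) and -0.18 for *Uqcrh* (95% interval -0.37 to 0.02).

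In complex IV, *Cox6b2* had the highest value with 0.56 (95% interval -0.00 to 1.12) at a level of 6.28 TPM. In complex V, *Atp5mc1* of the c ring had 0.22 (95% interval 0.01 to 0.44, adjusted p = 0.211 from edgeR), and *Atp5f1c*, the central γ subunit, had -0.17 (95% interval -0.36 to 0.02). Processed copies of *Atp5mc1* hold 25.6% of the reads that *Atp5mc1* itself has. The most abundant member of each of the 5 complexes, *Sdhd* with the values above among them, had an interval within a 1.5-fold change. The log2 fold change was -0.10 for *Cox8a* (95% interval -0.27 to 0.07), -0.05 for *Atp5f1a* (95% interval -0.23 to 0.12), -0.08 for *Ndufb11* (95% interval -0.29 to 0.13) and -0.03 for *Uqcr10* (95% interval -0.26 to 0.20).

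Whether p53 deletion acted differently in CBPAA and CBPWT crypts was tested as an interaction. No member passed an adjusted p under 0.05 in edgeR, as did 0.00684% of all genes, or in DESeq2. An unadjusted p under 0.05 was found in 10 members (11.8%), all below 0, against 10.3% of all genes. The interaction was below 0 in 81 of the 85 members, with a median of -0.25 beside -0.02 over all genes. Intervals of 25 members lay within a 1.5-fold difference, where 27.7% of all genes did. The members below 0 share the same 12 libraries and are not independent of each other. Without CBPAAp53-floxed replicate 2 the median was -0.13, with 69 members below 0, and without that library and CBPWTp53ΔIEC replicate 1 it was -0.08, with 66 below 0.

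Below 0 were 38 of 40 members of complex I, 4 of 4 of complex II, 8 of 9 of complex III, 13 of 14 of complex IV and 18 of 18 of complex V, with medians of -0.25, -0.28, -0.19, -0.32 and -0.24. *Ndufs5* had the smallest p (log2 difference -0.69, 95% interval -1.19 to -0.20, unadjusted p = 0.00948, adjusted p = 0.482 from edgeR), and its difference lay between -0.85 and -0.52 with each library left out in turn. *Atp5f1e* had a difference of -0.56 (SE 0.20), *Atp5me* of -0.55 (SE 0.20) and *Ndufb7* of -0.54 (SE 0.21). For *Cox7a1* it was -0.58 (95% interval -1.16 to 0.01) and for *Cox7a2l* -0.12 (95% interval -0.73 to 0.49). *Ndufs1*, the member with the smallest ratio of highest to lowest library, had an interaction of -0.01 (95% interval -0.27 to 0.26), and its exons overlap those of *Eef1b2* on the opposite strand.

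**Figure D5:**
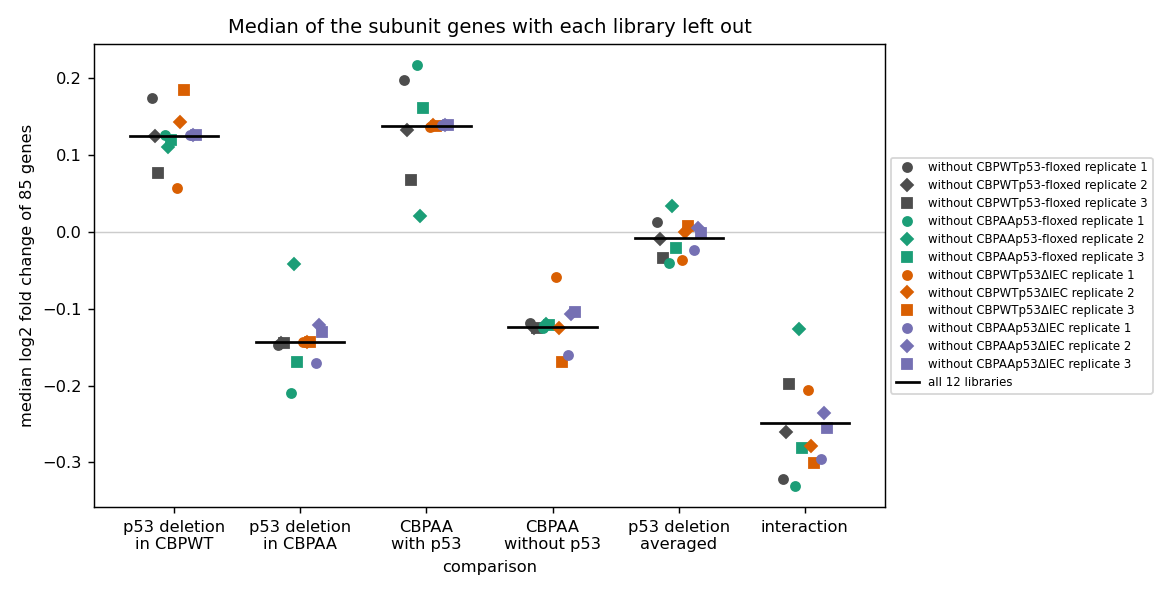
Median log2 fold change of the 85 genes in 6 comparisons with all 12 libraries (line) and with each library left out (points). Without CBPAAp53-floxed replicate 2 (green diamond) the median of CBPAA with p53 moved from 0.14 to 0.02 and that of the interaction from -0.25 to -0.13.

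Genes that build and supply the complexes were read beside the subunits, from lists chosen by function. None of the 13 mitochondrially encoded subunits was called in any comparison, and their median was 0.00 for p53 deletion in CBPWT crypts. Of 15 complex I assembly factors none was called, with a median of 0.14 in CBPWT crypts. Of 35 tested assembly factors of complexes II to V, 2 were called in CBPWT crypts, both higher, where 3.72% of all genes were called. *Pet100*, a chaperone of complex IV assembly, was at 19.1, 19.6 and 20.0 TPM in CBPWTp53-floxed and at 26.5, 30.7 and 38.7 TPM in CBPWTp53ΔIEC, giving a log2 fold change of 0.73 (SE 0.17, adjusted p = 0.0392 from edgeR). *Sco1*, which delivers copper to complex IV, had a log2 fold change of 0.37 (SE 0.09, adjusted p = 0.0373 from edgeR). *Sco2*, its paralog and a known p53 target, had 0.26 (SE 0.30) at a mean of 6.22 TPM in CBPWTp53-floxed and 7.15 TPM in CBPWTp53ΔIEC.

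*Cycs*, cytochrome c, was at 110.3, 111.5 and 100.9 TPM in CBPWTp53-floxed and at 121.4, 139.5 and 151.5 TPM in CBPWTp53ΔIEC, giving a log2 fold change of 0.39 (SE 0.12, adjusted p = 0.0897 from edgeR). Of the 17 genes of the mobile carriers, 1 was called, *Coq6* under p53 deletion averaged over genotypes (log2 fold change 0.46, adjusted p = 0.0453 from edgeR). The list holds cytochrome c, genes of ubiquinone synthesis and genes of electron delivery to ubiquinone (*Etfa*, *Etfb*, *Etfdh*, *Dhodh* and *Gpd2*). None of 18 genes of the tricarboxylic acid cycle was called in any comparison. Of 30 proteins of the mitochondrial ribosome, 2 were called as higher in CBPWT crypts, *Mrps11* (log2 fold change 0.77) and *Mrpl15* (log2 fold change 0.48), and 12 had an unadjusted p under 0.05, against 20.9% of all genes. Of 20 glycolysis genes, *Gapdh* (log2 fold change 0.46) and *Pgam1* (0.42) were called as higher in CBPWT crypts, and *Gapdh* also under p53 deletion averaged over genotypes (0.35). *Gapdh* was read at only 21.9 to 42.1 TPM, where *Aldoa* of the same list was at 859 to 1247 TPM. Near-identical copies were not searched for genes of these lists, so their part in the values of *Gapdh* was not tested.

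In the interaction, where the members had a median of -0.25, most of these lists were below 0 as well. The median was -0.30 for the mitochondrial ribosome, with 13 of 30 genes at an unadjusted p under 0.05, against 10.3% of all genes. It was -0.22 for mitochondrial mass, -0.22 for glycolysis, -0.20 for assembly of complexes II to V, -0.19 for the mobile carriers and -0.18 for complex I assembly. It was -0.11 for the tricarboxylic acid cycle, -0.06 for biogenesis regulators, -0.05 for the p53 targets of mitochondrial metabolism and 0.08 for the mitochondrially encoded subunits. Markers of colonic epithelium had a median of -0.38 and proliferation genes of -0.56, and no gene of any of these lists was called by edgeR.

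Regulators of mitochondrial biogenesis gave no call among the 17 tested. The coactivators *Ppargc1a* and *Ppargc1b* had log2 fold changes of -0.43 (SE 0.19) and -0.37 (SE 0.13) in CBPWT crypts, with adjusted p of 0.210 and 0.136 from edgeR. *Nrf1*, which reads the NRF1 sites, had 0.23 (SE 0.14), *Gabpa* -0.07 (SE 0.13), *Tfam* 0.16 (SE 0.10), *Esrra* 0.05 (SE 0.12) and *Myc* -0.04 (SE 0.10). Of 9 p53 targets that act on mitochondrial metabolism, 1 was called, *Rrm2b*, a subunit of the p53-inducible ribonucleotide reductase, as lower in CBPWT crypts (log2 fold change -0.82, SE 0.18, adjusted p = 0.0349 from edgeR). *Tigar* had 0.06 (SE 0.14). Of 17 genes of mitochondrial mass, *Hspd1* was called as higher under p53 deletion averaged over genotypes (log2 fold change 0.29, adjusted p = 0.0489 from edgeR).

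Reads of related sequences bear on single members. Of the 82 members that are not annotated as pseudogenes, 28 have a copy elsewhere of at least 95% identity over 150 bases or more, and copies hold over 5% of the member's reads in 14 and over 50% in 2, *Atp5mg* (96.1%) and *Cox7c* (53.7%). Left without these members, the pseudogenes and the inhibitor, 67 genes gave group differences in summed TPM of 3.84%, -1.78%, 1.83% and -3.67%, near those of all 85. Exons of 31 members overlap another gene, in 28 on the opposite strand, and whether strand was used in counting is not stated. *Cox7a1*, *Cox7a2*, *Cox7a2l*, *Sdhd*, *Ndufs5* and *Atp5me* are not among them. Other members named above are, such as *Ndufb6* (with *Smim27*), *Ndufb1* (with *Cpsf2*) and *Atp5pf* (with *Gabpa*), each on the opposite strand.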

How the data were processed

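RNA of colonic crypts was read in 12 libraries, 1 per mouse and 3 per group, made with a stranded mRNA kit. Per the submitters' processing notes, reads were trimmed with fastp 0.20.0, checked with FastQC 0.11.9, aligned to GRCm38 with HISAT2 2.1.0 and SAMtools 1.9 and counted with featureCounts of Subread 2.0.1; the strand setting is not given in the sources used here. The authors deposited raw counts and TPM per gene and library. The deposited table also holds 15 columns of the authors' own comparisons (log2 fold changes, p-values and adjusted p-values), which were not used.

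Counts were tested with the quasi-likelihood test of edgeR 4.0.16 (R 4.3.3; filterByExpr with a minimum count of 10, TMM, robust, 4 groups in 1 fit), adjusted over 14610 genes; an adjusted p under 0.05 was called. TPM was used for levels between genes. DESeq2 1.42.0, other scalings and filters, a replicate block and each library left out were alternatives. Copies were found with BLAST 2.17.0+. Code was tested on simulated data.

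The members and gene lists were chosen with earlier results of these data known. Named members were those called, the highest, lowest and most abundant of each complex, tissue isoforms and the extremes of each pairwise comparison. Members past an unadjusted p of 0.05 were named after their values were seen. Single results of 1 member are not reported here, and it is not drawn by name.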

Additional observations from a re-analysis of the deposited data

How the results depend on the processing

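The count of members called in CBPWT crypts after p53 deletion was 0, and 1 (*Cox7a1*) with DESeq2, with no filter on low counts and with only the groups compared in the fit. With each library left out it ranged from 0 to 1, and without both CBPAAp53-floxed replicate 2 and CBPWTp53ΔIEC replicate 1, chosen after seeing the data, it was 2 (*Cox7a1* and *Cox7a2l*). Averaged over genotypes, the count was 0, and 1 (*Cox7a2l*) with DESeq2, from 0 to 3 with each library left out and 5 without both libraries. The shares of all genes called in these alternative fits are not given here, so the counts cannot be set against them. The other 4 comparisons had 0 members called under every alternative. The median of members in the interaction, -0.25, ranged from -0.33 to -0.13 with each library left out and was -0.080 without both. The medians ranged from 0.06 to 0.18 (p53 deletion in CBPWT), -0.21 to -0.04 (in CBPAA), 0.02 to 0.22 (CBPAA with p53), -0.17 to -0.06 (CBPAA without p53) and -0.04 to 0.03 (averaged). The cause of these shifts was not tested. Signs turned for *Cox6b2* in CBPAA with p53 (0.21 without CBPWTp53-floxed replicate 2, 0.04 without CBPAAp53-floxed replicate 1; range over libraries left out, both included, -0.34 to 0.21) and for *Sdha* averaged over genotypes (0.0042 without CBPWTp53ΔIEC replicate 2, 0.0096 without CBPAAp53ΔIEC replicate 2; range -0.049 to 0.0096). Group differences in summed TPM moved by less than the SD between replicates under every scale tried. With the replicate number as a block, 0 members were called in every comparison, with medians of 0.12 and -0.15 for p53 deletion in CBPWT and CBPAA crypts, and calls over all genes in CBPWT crypts went from 544 to 32. In deviations from group means, same-numbered libraries of different groups correlated between -0.526 and 0.548, above 0.1 in 3 of 18 pairs. Pairs of other numbers lay between -0.657 and 0.643, the highest being CBPWTp53ΔIEC replicate 1 with CBPAAp53ΔIEC replicate 3. Such correlations cannot decide whether libraries share a batch. With 3 mice per group, changes of under 1.5-fold lay within the intervals of many members.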
